A study of Homo sapiens with 6 samples.

Results

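Interleukins and their receptors were followed in YAPC cells, a human pancreatic ductal adenocarcinoma (PDA) line that serves as a model of the classical subtype, with and without induction of GLI2, a transcription factor of the Hedgehog pathway. The members were the entries of the expression table whose name starts with IL and a digit, without a hyphen and leaving out the chemokine IL8, with the highest entry kept where a name occurred more than once. This gave 85 of 25442 genes, made up of 42 ligands and antagonists, 42 receptor chains and binding proteins, and 1 entry that merges IL4I1, an amino acid oxidase and no interleukin, with the nuclear pore gene NUP62. The table lists IL8 as CXCL8 and the lambda interferons and their receptor under IFNL names, so none of them is counted here.

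The study compared 2 groups of 3 RNA-seq libraries to learn what GLI2 does to a classical PDA line. YAPC-iGLI2 cells carried GLI2 in pRetroX-Tight-Puro, a retroviral vector whose promoter is switched on by Dox, and YAPC-iEV cells carried the vector without an insert (EV). Both groups received Dox at 1 μg/ml for 6 days, so the comparison holds no library without Dox, and both share the YAPC background. The study's methods speak in general of biological replicates with technical replicates but do not say which of these the 3 libraries of a group are, nor whether the lines were clones or pools. The titles also carry a code whose digit is shared by replicates 1 and 2 of each group and differs in replicate 3, with no explanation. The p-values measure the spread between these libraries, which may be technical.

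Interleukins are secreted proteins through which immune, epithelial and stromal cells signal to each other, and most act on receptors built from a chain particular to the ligand and a chain shared within a family. The IL6 family signals through the shared chain gp130 (IL6ST), the IL2, IL4 and IL7 group through the common gamma chain (IL2RG), both by way of JAK kinases and STAT factors, while the IL1 and IL17 families use adaptors that lead to NF-κB. In pancreatic cancer, the IL6 family and IL1 are known for the exchange of signals between tumor cells and stroma.

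Values are FPKM, fragments scaled to transcript length and library size, so that levels of different genes can be compared; the number of reads behind them is unknown, and no interval for counting error can be given. Total FPKM was between 803149 and 1082687 in the 6 libraries. GLI2 stood at 0.466, 0.412 and 0.344 FPKM in iEV libraries 1 to 3 and at 94.5, 207 and 195 FPKM in iGLI2 libraries 1 to 3, numbered here by replicate, so each library had the GLI2 level of its label. iGLI2 replicate 1 held the lowest of the induced GLI2 levels. Differences were tested with limma on log2(FPKM + 1), a scale that understates the change of genes with low values, and a call is a two-sided Benjamini-Hochberg adjusted p under 0.05 over the 12493 genes averaging 1 FPKM or more. Calls were repeated under other scalings and filters and with single libraries left out, and also with both replicate 1 libraries left out, a choice made after the values had been seen.

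All 7 markers of lymphocytes and leukocytes were under 1 FPKM in every library, with CD2 and MS4A1 listed at 0, and their summed level was 0.524 to 0.551 FPKM in iEV and 0.196 to 0.452 FPKM in iGLI2 libraries. The 6 macrophage markers summed to 18.5 to 21.7 FPKM in iEV and 10.4 to 18.3 FPKM in iGLI2 libraries. Most of that sum was LYZ, and CD14 was lower in iGLI2 cells (log2 fold change -1.11, limma adjusted p = 0.00274). LYZ and CD68 had overlapping groups and were not called (limma adjusted p = 0.331 and 0.748). The 6 epithelial markers summed to 1890 to 2044 FPKM and 1728 to 2010 FPKM, although every library had KRT8 and KRT18 at 0. Zeros of the table are therefore given here as listed at 0 and not as absence. The sums of the 6 fibroblast markers were 2.18 to 2.84 FPKM in iEV and 2.93 to 3.91 FPKM in iGLI2 libraries, and those of the 4 endothelial markers were under 1 FPKM throughout. Of the fibroblast markers, COL1A1 alone was tested, and it was higher in iGLI2 cells (1.41 ± 0.127 against 2.69 ± 0.365 FPKM, mean ± SD, limma adjusted p = 0.0110), while DCN was listed at 0 and the other 4 had no separation of the groups. Of the epithelial markers, EPCAM and CDH1 were higher (log2 fold change 0.37 for each, adjusted p = 0.00709 and 0.0169). KRT19 and KRT7 had lower means in iGLI2 cells and were not called (log2 fold change -0.18 and -0.23, limma adjusted p = 0.195 and 0.388). The part of these marker levels in the results was not tested.

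Of the 85 members, 33 were expressed, averaging 1 FPKM or more across the 6 libraries, and 52 were below it. The expressed members comprised 12 of the 42 ligands and 20 of the 42 receptors and binding proteins, with the merged entry as the remaining one. Just inside the limit were IL17D, with a mean of 1.18 FPKM, and IL10, with 1.20 FPKM, and just outside it were IL1R2, with 0.794 FPKM, and IL20RB, with 0.763 FPKM. Expression was low in general, since 26 of the 33 lay between 1 and 10 FPKM and 7 at 10 FPKM or above. IL18, an IL1 family cytokine stored in epithelial cells as a precursor, was the highest, with 63.8 to 81.7 FPKM in the 6 libraries. IL13RA1, a chain of the IL4 and IL13 receptor, followed with a mean of 29.2 FPKM, ahead of IL6ST with 24.4, IL10RB with 22.7, IL15RA with 22.2, the merged entry with 21.4 and IL32 with 15.1 FPKM.

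Between YAPC-iGLI2 and YAPC-iEV cells, 14 of the 33 expressed members (42.4%) passed the threshold, 5 higher and 9 lower in iGLI2 cells, where 21.9% of all genes tested were called, 10.1% higher and 11.8% lower. The 5 that rose were the ligands IL11 and IL37 and the receptor chains IL20RA, IL31RA and IL6R. The 9 that fell were the ligands IL32 and IL7, the receptor chains IL2RG, IL17RB, IL12RB1, IL6ST, IL4R and IL17RE, and the binding protein IL18BP. By kind, 4 of the 12 expressed ligands and 10 of the 20 expressed receptors and binding proteins were called. Of the 33 expressed members, 6 were called with a change of at least 2-fold on the log2(FPKM + 1) scale, against 4.22% of all genes tested. Of these 6, 3 had a mean under 1 FPKM in one group. The median log2 fold change of the 33 was -0.17, against -0.015 over all genes, and the median of its absolute size was 0.36 against 0.18. In 20 of the 33 the groups did not overlap, which was the case for 42% of all genes. With both replicate 1 libraries left out, 23 of the 33 were called, 8 higher and 15 lower, against 43.8% of all genes (21.3% higher and 22.5% lower), and all 14 calls remained.

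The count depends in part on the limit at 1 FPKM, because 7 of the 33 had a mean under 1 FPKM in one group and entered the test through the other. These were IL11, IL37, IL31RA and IL17D, with the lower mean in iEV cells, and IL6, IL10 and IL27RA, with the lower mean in iGLI2 cells. Among the 26 members with both group means at 1 FPKM or more, 11 were called, 2 of them higher and 9 lower. The share of all genes under this same restriction was not computed, so this split has no level to be set against. Over all genes, 46% of the calls were higher in iGLI2 cells, a share that became 54.3% with upper quartile scaling and 59.3% with small RNA genes left out and the libraries rescaled. A fall of a receptor RNA in these bulk samples cannot be told apart from a fall in the number of cells that express it.

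**Figure D1:**
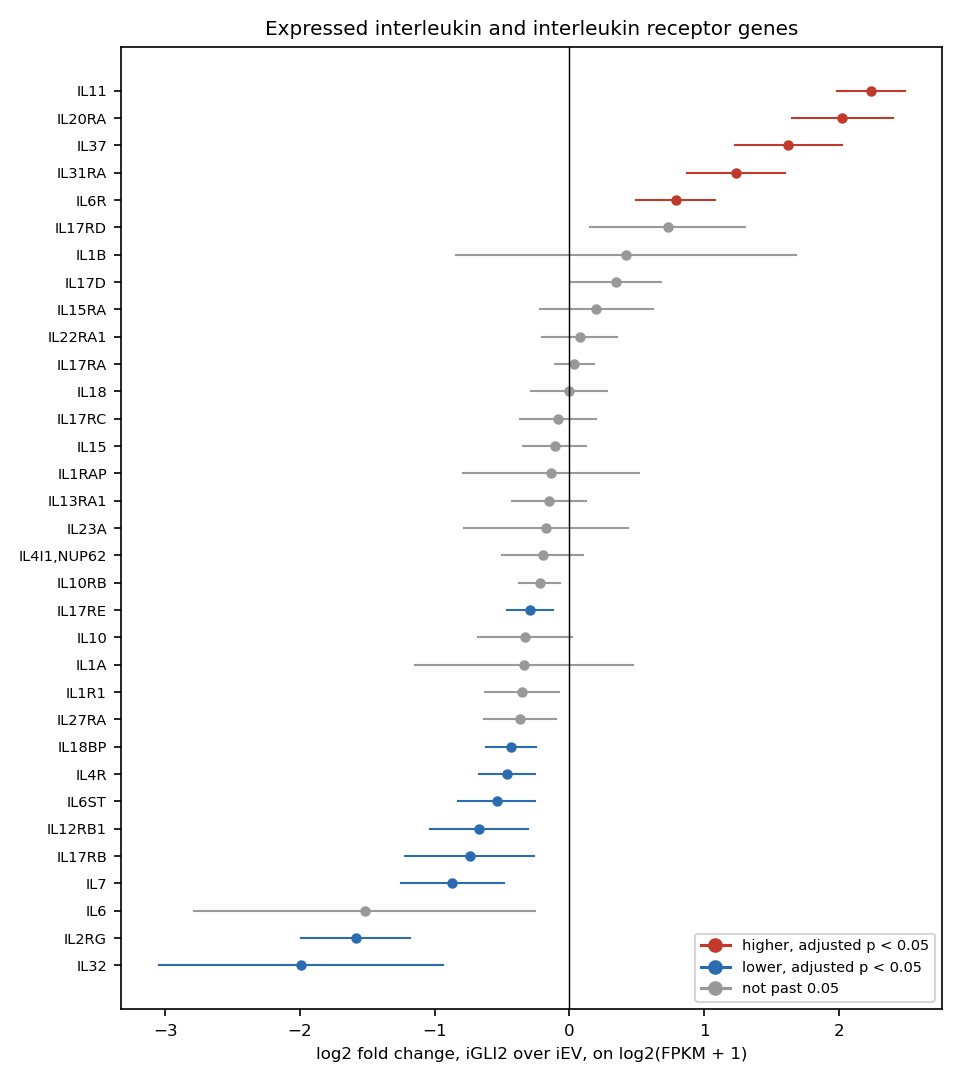
Log2 fold change (iGLI2 over iEV, on log2(FPKM + 1)) of the 33 expressed members on the x axis, one row per gene, with the 95% confidence interval of the limma fit as a horizontal line. The 5 called increases (red) run from IL11 at 2.24 to IL6R at 0.79 and the 9 called decreases (blue) from IL17RE at -0.29 to IL32 at -2.00, while IL6, at -1.52, has one of the widest intervals and is not called (grey).

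Before the single genes, 1 feature of the libraries has to be described. In several members the libraries numbered replicate 1 stood apart in both groups. IL1B, for example, was 0.589, 3.34 and 2.33 FPKM in iEV libraries 1 to 3 and 1.04, 4.48 and 3.94 FPKM in iGLI2 libraries 1 to 3. Replicate 1 was the lowest of its group in both groups for 14 of the 33 expressed members (42.4%), against 33.9% of all genes tested, and the highest in both for 6 (18.2%), against 25.2%. The shares over all genes come from the same libraries and are no chance level. The labels give no batch, date or culture for the number. Its part in the results was not tested beyond leaving these libraries out and a fit with a term for the replicate number.

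**Figure D2:**
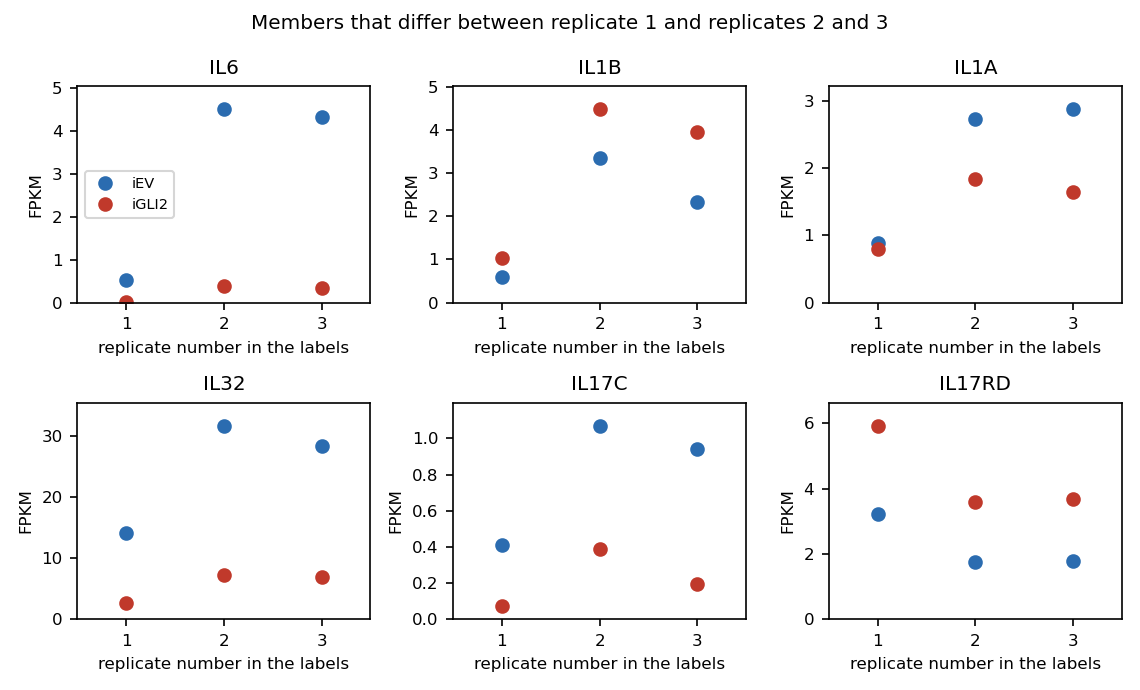
FPKM (linear y axis) against replicate number (x axis) for IL6, IL1B, IL1A, IL32, IL17C and IL17RD in the iEV (blue) and iGLI2 (red) libraries, one point per library. Replicate 1 is the lowest of both groups for the first 5 genes and the highest for IL17RD, and for IL6, IL32 and IL17C every iGLI2 point lies below every iEV point.

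Promoter sequences are shown for the members with an entry and the 2 largest called changes in each direction on the log2(FPKM + 1) scale, IL11 and IL20RA (higher) and IL32 and IL2RG (lower), and for IL6, the expressed member with the largest difference that was not called, since GLI2 is a DNA-binding factor and these are the starts of the genes on which the comparison turns. They are the 300 bases from 250 before to 50 after the RefSeq start, on the strand of the gene, in GRCh38.p14, a different build from the hg19 loci of the expression table. Capitals mark matches on either strand to 5 motifs, namely GACCACCCA, the site that GLI factors are known to bind, its core CCACCC, which lies within it, the AP-1 site TGANTCA, the STAT site TTCNNNGAA and the NF-κB consensus.
IL11, chr19:55370414-55370713, minus strand: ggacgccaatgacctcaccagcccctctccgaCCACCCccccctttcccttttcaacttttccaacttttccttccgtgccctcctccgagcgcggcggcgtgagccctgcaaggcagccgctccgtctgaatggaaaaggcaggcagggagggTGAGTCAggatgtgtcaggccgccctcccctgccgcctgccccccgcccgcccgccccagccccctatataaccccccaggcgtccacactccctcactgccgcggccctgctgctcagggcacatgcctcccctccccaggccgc
IL20RA, chr6:137044916-137045215, minus strand: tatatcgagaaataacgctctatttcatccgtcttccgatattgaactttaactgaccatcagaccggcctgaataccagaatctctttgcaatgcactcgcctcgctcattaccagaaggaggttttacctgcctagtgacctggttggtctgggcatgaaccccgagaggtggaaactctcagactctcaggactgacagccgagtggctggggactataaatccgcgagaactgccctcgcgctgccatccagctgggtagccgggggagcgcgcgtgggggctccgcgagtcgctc
IL32, chr16:3065153-3065452, plus strand: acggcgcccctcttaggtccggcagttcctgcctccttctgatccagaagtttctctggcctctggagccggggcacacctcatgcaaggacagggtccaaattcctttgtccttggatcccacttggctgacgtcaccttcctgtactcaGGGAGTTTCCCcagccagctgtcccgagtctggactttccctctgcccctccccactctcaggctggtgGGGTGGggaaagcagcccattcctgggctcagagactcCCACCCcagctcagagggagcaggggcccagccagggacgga
IL2RG, chrX:71111528-71111827, minus strand: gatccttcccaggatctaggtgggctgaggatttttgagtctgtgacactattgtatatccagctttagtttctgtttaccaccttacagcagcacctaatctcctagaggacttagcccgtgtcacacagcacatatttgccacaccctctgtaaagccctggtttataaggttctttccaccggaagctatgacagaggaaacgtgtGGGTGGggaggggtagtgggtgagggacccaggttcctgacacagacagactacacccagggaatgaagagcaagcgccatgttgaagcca
IL6, chr7:22726950-22727249, plus strand: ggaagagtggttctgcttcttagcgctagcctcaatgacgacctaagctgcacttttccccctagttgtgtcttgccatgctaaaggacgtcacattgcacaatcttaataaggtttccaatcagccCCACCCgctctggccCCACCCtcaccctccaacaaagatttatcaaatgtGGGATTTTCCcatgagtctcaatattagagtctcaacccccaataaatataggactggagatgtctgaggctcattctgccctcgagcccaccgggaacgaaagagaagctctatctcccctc

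The IL11 window held CCACCC at -218 to -213 from the start and an AP-1 match at -96 to -90, and the IL20RA window held no match to any of the 5. IL32 had CCACCC at -30 to -25 and at 9 to 14 and a pair of overlapping NF-κB matches between -99 and -89, IL2RG had CCACCC at -41 to -36, and IL6 had it at -123 to -118 and -108 to -103 with an NF-κB match at -73 to -64. The full GACCACCCA was found in 0 of the 27 expressed members with an entry and in 0.249% of the 27305 promoters of the RefSeq set. CCACCC was found in 16 of the 27 (59.3%) and in 33.4% of all promoters. The 16 held members that rose, members that fell and members that were not called, such as IL22RA1 and IL17RC. AP-1 matches were in 5 of the 27 (7.76% of all promoters), STAT matches in 4 (7.88%) and NF-κB matches in 8 (10.8%). The RefSeq set was not limited to expressed genes and was not matched for base composition, so these shares compare unlike sets. A match describes letters in a window of 300 bases and is no measurement of binding.

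In the IL6 family, 4 of the 5 expressed members were called (80%, against 21.9% of all genes tested), 3 higher and 1 lower. Of the 3 higher, IL11 and IL31RA had an iEV mean under 1 FPKM and entered the test through their iGLI2 values. IL6, which was not called, entered through its iEV values. IL11, a ligand of gp130, lies on chromosome 19 of hg19 from 55875750 to 55881831. It stood at 0.271, 0.208 and 0.295 FPKM in iEV libraries 1 to 3 and at 5.41, 5.17 and 4.27 FPKM in iGLI2 libraries 1 to 3. The iGLI2 libraries were all far above the iEV libraries and close to each other. The mean rose 19.2-fold, from 0.258 ± 0.0450 to 4.95 ± 0.602 FPKM (mean ± SD, 3 libraries each). The log2 difference was 2.24, with a standard error (SE) of 0.10 (limma adjusted p = 0.000186), and it stayed between 2.18 and 2.32 with each library left out in turn. Its own receptor chain, IL11RA, was under 1 FPKM, with 0.619 to 0.903 FPKM in iEV and 0.471 to 0.773 FPKM in iGLI2 libraries, ranges that overlapped.

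IL6, the founding ligand of the family, behaved differently between libraries. Its locus is on chromosome 7 of hg19 from 22765014 to 22771621. Its level was 0.519, 4.50 and 4.32 FPKM in iEV libraries 1 to 3 and 0.0247, 0.375 and 0.343 FPKM in iGLI2 libraries 1 to 3. Every iGLI2 library was below every iEV library, but iEV replicate 1 was nearer to iGLI2 replicates 2 and 3 than to the other iEV libraries. The log2 fold change of -1.52 (SE 0.52) missed the threshold (limma adjusted p = 0.0899). Without iEV replicate 1 it was -2.13 with an adjusted p of 0.00303, and with both replicate 1 libraries left out -1.99 with an adjusted p of 5.53e-04. Without any other single library the adjusted p was between 0.164 and 0.250. The antisense gene IL6-AS1 shares 428 of the 4321 exon bases of IL6, and reads of both cannot be told apart without strand.

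The receptor side of the family moved in both directions. IL6R, the chain that binds IL6, was 2.47, 1.84 and 1.71 FPKM in iEV and 3.94, 4.64 and 3.96 FPKM in iGLI2 libraries 1 to 3. The groups did not overlap, and the mean was 2.08-fold higher in iGLI2 cells (log2 fold change 0.79, SE 0.12, limma adjusted p = 0.00747). IL31RA, which pairs with OSMR to bind IL31, was 0.603, 1.06 and 1.14 FPKM in iEV and 2.99, 3.83 and 3.85 FPKM in iGLI2 libraries. Replicate 1 was the lowest in both groups, yet the lowest iGLI2 library was well above the highest iEV library, for a log2 fold change of 1.24 (SE 0.15, adjusted p = 0.00326). The ligand IL31 was listed at 0 in all 6 libraries. IL6ST, the signaling chain gp130 itself, fell from 29.8, 28.6 and 28.6 FPKM to 23.6, 18.2 and 17.6 FPKM. The iEV libraries were nearly equal and iGLI2 replicate 1 lay between them and the other iGLI2 libraries. The log2 fold change was -0.54 (SE 0.12, adjusted p = 0.0238), and the call was lost without iEV replicate 1, 2 or 3 or iGLI2 replicate 2 or 3 (adjusted p between 0.0696 and 0.0906) and with small RNA genes left out and the libraries rescaled (0.0538). IL27RA, which pairs with gp130 to bind IL27 and is grouped below with the IL12 family, had group means of 1.55 ± 0.250 and 0.979 ± 0.106 FPKM (mean ± SD, 3 libraries each).

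The ligands and chains of the same family that carry other names were examined from a list of 55 cytokine signaling genes, of which 53 were in the table and 44 were tested. Of these 44, 13 (29.5%, against 21.9% of all genes) were called, 8 higher and 5 lower in iGLI2 cells. The list was chosen with earlier results of these data known, so its share is not independent of them. LIF, a gp130 ligand, was 8.87, 9.80 and 9.46 FPKM in iEV and 42.8, 49.0 and 42.1 FPKM in iGLI2 libraries. All 3 iGLI2 libraries were far above the iEV libraries, with a log2 fold change of 2.13 (SE 0.080, limma adjusted p = 1.31e-04). CLCF1, another ligand, rose from 1.18 ± 0.334 to 2.54 ± 0.226 FPKM (mean ± SD, 3 libraries each), a log2 difference of 0.70 (adjusted p = 0.0155). It lost the call without iEV replicate 2 (0.0640) or iGLI2 replicate 2 (0.0597). The receptor chains LIFR and OSMR fell like IL6ST. OSMR was 14.9, 15.3 and 14.3 FPKM in iEV and 10.1, 8.50 and 7.80 FPKM in iGLI2 libraries (log2 fold change -0.70, adjusted p = 0.00531). LIFR changed from 4.77 ± 0.192 to 3.75 ± 0.272 FPKM (log2 fold change -0.28, adjusted p = 0.0392) and lost the call without iEV replicate 1, 2 or 3 or iGLI2 replicate 2 or 3 (adjusted p between 0.0655 and 0.147), with upper quartile scaling (0.0701), with small RNA genes left out and the libraries rescaled (0.117) and with no filter on low values (0.0782). The ligands OSM and CTF1 were under 1 FPKM in every library.

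**Figure D3:**
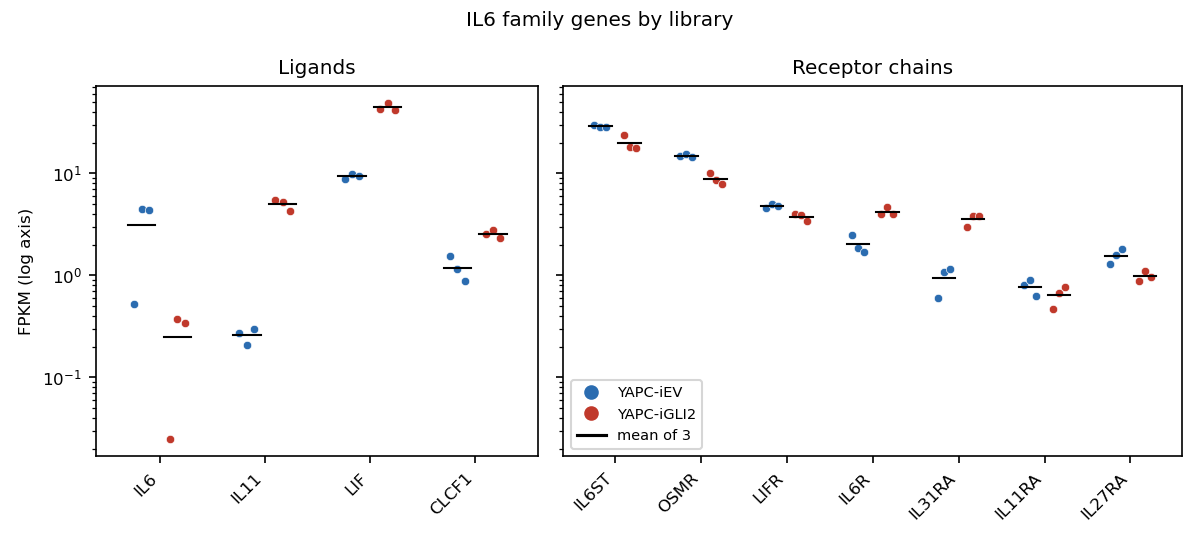
FPKM of IL6 family genes in each library on a log y axis, ligands on the left and receptor chains on the right, iEV in blue and iGLI2 in red, with the mean of 3 libraries as a bar. IL11, LIF and CLCF1 are higher in every iGLI2 library and IL6 lower, while IL6ST, OSMR and LIFR are lower and IL6R and IL31RA higher in every iGLI2 library.

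Downstream of these receptors, the JAK kinases showed 0 calls among 4 genes tested by limma, and 0 of the 4 had an unadjusted p under 0.05. Over all genes tested, 21.9% were called. STAT3, the factor chiefly used by gp130, was lower in iGLI2 cells, at 51.8 ± 0.636 against 41.9 ± 0.706 FPKM (mean ± SD, 3 libraries each). Its log2 fold change was -0.30 (limma adjusted p = 0.0112). The call was lost without iEV replicate 2 or 3 or iGLI2 replicate 2 (0.0509 to 0.0565). SOCS3, the inhibitor of gp130 signaling, averaged 4.19 ± 0.579 in iEV and 3.40 ± 0.245 FPKM in iGLI2 cells and was not called. Among 12 inhibitors tested, 2 were called (16.7%, against 21.9% of all genes tested), both higher in iGLI2 cells. These were SOCS5 (7.65 ± 0.242 to 10.6 ± 0.894 FPKM, adjusted p = 0.0121) and SOCS7 (5.46 ± 0.333 to 7.10 ± 0.640 FPKM, adjusted p = 0.0380). SOCS5 lost the call without iEV replicate 2 (0.0645) or 3 (0.0613), and SOCS7 without iEV replicate 1, 2 or 3 or iGLI2 replicate 2 or 3 (0.0694 to 0.135) without both replicate 1 libraries (0.0514), with quantile normalization (0.0519), with no filter (0.0666) and with the filter raised to a mean of 5 FPKM (0.0612).

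Of the IL10 family receptors, IL20RA showed the second largest rise of the called members on the log2(FPKM + 1) scale, while IL37 had a larger ratio of means and, with a pseudocount of 0.1, a larger log2 fold change (3.21 against 2.64). It encodes the chain that joins IL20RB to bind IL19, IL20 and IL24 and joins IL10RB to bind IL26, and spans 137321108 to 137366317 of chromosome 6 in hg19. Its level was 1.18, 1.31 and 1.04 FPKM in iEV libraries 1 to 3 and 6.21, 9.74 and 8.02 FPKM in iGLI2 libraries 1 to 3. The lowest iGLI2 library was far above the highest iEV library, and the mean rose 6.78-fold (log2 fold change 2.03, SE 0.15, limma adjusted p = 0.000774). Leaving out one library at a time gave log2 fold changes of 1.89 to 2.18. IL10RB, shared by several receptors of the family, averaged 24.5 ± 1.24 in iEV and 20.9 ± 0.672 FPKM in iGLI2 cells (mean ± SD, 3 libraries each; adjusted p = 0.0532, and 0.0458 with the filter raised to a mean of 5 FPKM). IL22RA1, the IL22 receptor chain, had 1.58 ± 0.280 and 1.72 ± 0.193 FPKM, overlapping groups. IL20RB stayed below the limit, at 0.662 to 0.752 FPKM in iEV and 0.671 to 1.02 FPKM in iGLI2 libraries, also overlapping. IL10RA was 0.165, 0.173 and 0.146 FPKM in iEV and 0.747, 0.759 and 0.783 FPKM in iGLI2 libraries, without overlap, at a level below the limit of the main test.

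The ligands of this family were low. IL10, an anti-inflammatory cytokine, was 1.29, 1.30 and 1.77 FPKM in iEV and 0.671, 1.15 and 1.04 FPKM in iGLI2 libraries. The groups did not overlap, but the difference was not called (log2 fold change -0.33, limma adjusted p = 0.155). IL19 had 0.592, 0.342 and 0.289 FPKM in iEV and 0.184, 0.134 and 0.200 FPKM in iGLI2 libraries, and its exons share 172 bases with those of IL10 on the opposite strand, which a library kit without strand marking cannot separate. IL20 and IL24 stayed under 0.1 FPKM and IL22 and IL26 were listed at 0 in all 6 libraries, so that the ligands known for IL20RA were all under 1 FPKM in every library.

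In the IL1 family, 1 of 4 expressed ligands and antagonists was called (25%, against 21.9% of all genes tested). The called member, IL37, entered the test through its iGLI2 mean. IL37, a member known for dampening inflammation, lies on chromosome 2 of hg19 from 113670548 to 113676458 and was 0.197, 0.143 and 0.296 FPKM in iEV and 2.01, 3.42 and 2.92 FPKM in iGLI2 libraries. All iGLI2 libraries were above 2 FPKM and all iEV libraries under 0.3 FPKM. The mean rose 13.1-fold, from 0.212 ± 0.0774 to 2.78 ± 0.714 FPKM (mean ± SD, 3 libraries each; log2 fold change 1.63, SE 0.16, limma adjusted p = 0.00179). IL18 had means of 73.8 ± 9.12 and 73.4 ± 6.45 FPKM, with a 95% confidence interval of the log2 fold change from -0.28 to 0.28. The inflammatory ligands IL1B and IL1A were not called. IL1A was 0.881, 2.72 and 2.88 FPKM in iEV and 0.799, 1.83 and 1.65 FPKM in iGLI2 libraries, low in replicate 1 of both groups (log2 fold change -0.34, adjusted p = 0.513). Without both replicate 1 libraries its log2 fold change was -0.47 (adjusted p = 0.00962), and that of IL1B was 0.45 (adjusted p = 0.0911).

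Of the 3 expressed receptors and binding proteins of the IL1 family, 1 was called (33.3%, against 21.9% of all genes tested). IL18BP, the secreted trap of IL18, fell from 2.92, 2.75 and 3.08 FPKM to 1.85, 1.83 and 2.03 FPKM (log2 fold change -0.43, SE 0.076, limma adjusted p = 0.0123). The groups were tight and apart, but 1031 of its 5851 exon bases overlap NUMA1 on the other strand, so its value is uncertain. IL1R1, the signaling receptor of IL1, averaged 3.88 ± 0.467 in iEV and 2.83 ± 0.373 FPKM in iGLI2 cells (adjusted p = 0.0759, and 0.0140 without both replicate 1 libraries). IL1RAP, its partner chain, had 3.20 ± 1.01 and 2.88 ± 1.26 FPKM in overlapping groups. Below the limit of the test, the decoy receptor IL1R2 was 0.462, 0.418 and 0.572 FPKM in iEV and 0.764, 1.35 and 1.20 FPKM in iGLI2 libraries. The antagonist IL1RN was 0.361, 0.326 and 0.330 FPKM in iEV and 0.592, 0.998 and 1.03 FPKM in iGLI2 libraries. Both were higher in every iGLI2 library than in any iEV library. IL18R1, which binds IL18, was 0.211, 0.561 and 0.794 FPKM in iEV and 0.153, 0.218 and 0.267 FPKM in iGLI2 libraries, which overlapped. IL33 and its receptor IL1RL1 stayed under 0.1 FPKM.

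Among 12 adaptors and kinases of IL1 signaling, 3 were called (25%, against 21.9% of all genes tested). SIGIRR, an inhibitory member of the receptor family, was 42.1, 40.1 and 39.6 FPKM in iEV and 22.8, 23.2 and 25.4 FPKM in iGLI2 libraries, well separated (log2 fold change -0.75, SE 0.065, limma adjusted p = 0.00111). TOLLIP, an inhibitor of IRAK1, changed from 27.5 ± 2.43 to 16.9 ± 0.481 FPKM (log2 fold change -0.67, adjusted p = 0.00290). TAB2, which links TRAF6 to the kinase TAK1, rose from 28.2 ± 0.715 to 42.1 ± 4.88 FPKM (log2 fold change 0.56, adjusted p = 0.0113) and lost the call without iEV replicate 3 (0.0552) or iGLI2 replicate 2 (0.0527). A further 3 genes of the list are named after their values were seen. IRAK3, an inhibitory kinase of the family, was 6.90, 7.62 and 8.06 FPKM in iEV and 7.04, 36.1 and 38.1 FPKM in iGLI2 libraries. Replicate 1 of the iGLI2 cells was at the iEV level, the adjusted p was 0.160, and without that library the log2 fold change was 2.16 with an adjusted p of 3.06e-04. IRAK2, a kinase, and CASP1, which processes IL1B and IL18, averaged 29.6 ± 8.51 and 11.5 ± 4.09 FPKM in iEV against 15.7 ± 3.94 and 6.28 ± 2.42 FPKM in iGLI2 cells. The groups overlapped for CASP1 and not for IRAK2, and the adjusted p was 0.0759 for IRAK2 and 0.172 for CASP1 (0.00310 and 0.0154 without both replicate 1 libraries). IRAK2 was called without iEV replicate 1 alone (0.0356).

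The common gamma chain family held 2 called receptors of 4 expressed and 1 called ligand of 2 expressed, all lower in iGLI2 cells. This was 50% of each kind, against 21.9% of all genes tested. IL2RG, the shared signaling chain, lies on the X chromosome of hg19 from 70327254 to 70331481 and was 10.4, 14.1 and 14.3 FPKM in iEV and 2.83, 4.13 and 3.96 FPKM in iGLI2 libraries. Replicate 1 was the lowest in both groups, and every iGLI2 library was below 5 FPKM while every iEV library was above 10 FPKM. The mean was 3.55-fold lower (log2 fold change -1.59, SE 0.17, limma adjusted p = 0.00209), and the log2 fold change was -1.72 to -1.45 whichever single library was left out. An unnamed protein-coding gene on the same strand shares 1403 of the 2735 exon bases of IL2RG in GENCODE, so reads of both cannot be told apart there. IL4R, the IL4-binding chain, fell from 7.38, 6.42 and 6.35 FPKM to 4.96, 4.59 and 4.22 FPKM without overlap (log2 fold change -0.46, SE 0.085, adjusted p = 0.0142), a call lost without iEV replicate 2 or iGLI2 replicate 2 or 3 (0.0538 to 0.0617). IL13RA1, which pairs with IL4R on epithelial cells, had 30.6 ± 1.14 and 27.7 ± 4.31 FPKM and was not called (adjusted p = 0.393, and 0.0213 without iGLI2 replicate 1). IL15RA, which presents IL15 to neighboring cells, had 20.4 ± 0.915 and 24.0 ± 5.49 FPKM (adjusted p = 0.454, and 0.00879 without iGLI2 replicate 1).

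IL7, a growth factor of lymphocytes encoded on chromosome 8, was 2.24, 3.70 and 3.18 FPKM in iEV and 1.24, 0.999 and 1.33 FPKM in iGLI2 libraries. The groups did not overlap, and the mean was 2.56-fold lower in iGLI2 cells (log2 fold change -0.87, SE 0.16, limma adjusted p = 0.0135). The call was lost without iEV replicate 3 (0.0592) or iGLI2 replicate 2 (0.0542), and 322 of its 3392 exon bases overlap ZC2HC1A on the opposite strand. IL15, a ligand of the same group, had 3.04 ± 0.313 and 2.75 ± 0.288 FPKM (mean ± SD, 3 libraries each) with overlapping groups, and its 95% confidence interval for the log2 fold change was -0.34 to 0.13. IL4, IL9 and IL21 were listed at 0 in all 6 libraries. IL2 was listed at 0 in iEV libraries 1 to 3 and in iGLI2 replicate 1, and at 0.265 and 0.215 FPKM in iGLI2 replicates 2 and 3. IL13 was under 0.1 FPKM in every library, and the lymphocyte chains IL2RA, IL2RB and IL7R stayed under 0.2 FPKM.

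In the IL12 family, the receptor chain IL12RB1, shared by the receptors of IL12 and IL23, was 2.21, 2.41 and 2.38 FPKM in iEV and 0.691, 1.39 and 1.26 FPKM in iGLI2 libraries. The iEV libraries were tight, and each iGLI2 library was lower than any of them. The log2 fold change was -0.67 (SE 0.15, limma adjusted p = 0.0252), with the call lost without iEV replicate 1, 2 or 3 or iGLI2 replicate 3 (0.0569 to 0.0921). IL27RA, lower in every iGLI2 library, was not called (log2 fold change -0.36, adjusted p = 0.0639, and 0.0385 without iEV replicate 1). IL23A, the ligand chain particular to IL23, had 6.62 ± 2.26 and 5.57 ± 0.916 FPKM in overlapping groups (adjusted p = 0.661). Its partner IL12B and the second chains IL12RB2 and IL23R were under 0.2 FPKM in every library. IL12A, the other partner of IL12B, was 0.222 to 0.459 FPKM in iEV and 0.409 to 0.623 FPKM in iGLI2 libraries.

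Among the IL17 receptors, 2 of 5 expressed chains were called (40%, against 21.9% of all genes tested) and both were lower in iGLI2 cells. IL17RB, the receptor of IL25, was 2.77, 4.54 and 5.30 FPKM in iEV and 1.90, 1.98 and 2.26 FPKM in iGLI2 libraries, so that the iEV libraries spread widely above a tight iGLI2 group. Its log2 fold change was -0.74 (SE 0.20, limma adjusted p = 0.0449), and the call was lost without iEV replicate 2 or 3 or iGLI2 replicate 1, 2 or 3 (0.0859 to 0.149), with upper quartile scaling (0.0504) and with no filter (0.0651). IL17RE, the receptor chain for IL17C, was 3.25, 2.98 and 2.95 FPKM in iEV and 2.25, 2.40 and 2.32 FPKM in iGLI2 libraries (log2 fold change -0.29, SE 0.070, adjusted p = 0.0344). The groups did not overlap, but the call was lost without iEV replicate 1, 2 or 3 or iGLI2 replicate 2 or 3 (0.0646 to 0.0972), with small RNA genes left out and the libraries rescaled (0.0712) and with no filter (0.0569). IL17RD, known as a feedback inhibitor of FGF signaling, was 3.22, 1.76 and 1.79 FPKM in iEV and 5.92, 3.57 and 3.69 FPKM in iGLI2 libraries. Replicate 1 was the highest in both groups and no iGLI2 library fell below 3.5 FPKM. The log2 fold change of 0.73 was not called (adjusted p = 0.0778), and it was 0.93 (0.0451) without iEV replicate 1 and 0.74 (0.00230) without both replicate 1 libraries.

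IL17RA and IL17RC, which form the receptor of IL17A and IL17F, had overlapping groups and were not called (limma adjusted p = 0.691 and 0.647). IL17RA averaged 4.21 ± 0.155 in iEV and 4.35 ± 0.115 FPKM in iGLI2 cells (mean ± SD, 3 libraries each), with a 95% confidence interval of the log2 fold change from -0.11 to 0.19, and IL17RC had 9.72 ± 0.695 and 9.17 ± 1.37 FPKM (-0.37 to 0.20). TRAF3IP2, the adaptor of these receptors, rose from 18.4 ± 0.374 to 24.4 ± 2.65 FPKM (log2 fold change 0.38, limma adjusted p = 0.0288) and lost the call without iEV replicate 1, 2 or 3 or iGLI2 replicate 2 or 3 (0.0676 to 0.108). IL17D, the only expressed ligand of the family, had 0.920 ± 0.214 and 1.44 ± 0.283 FPKM in overlapping groups and was not called (0.132, and 0.0460 without iGLI2 replicate 1). IL17C, a ligand made by epithelial cells, was 0.408, 1.07 and 0.942 FPKM in iEV and 0.0715, 0.386 and 0.194 FPKM in iGLI2 libraries. It was below the limit of the test, lower in every iGLI2 library and lowest in replicate 1 of each group. IL17A, IL17F and IL25 were listed at 0 in all 6 libraries.

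IL32, a cytokine without close relatives that is induced by inflammatory signals, showed the largest fall of the called members on the log2(FPKM + 1) scale. The ratio of means was larger for IL6, at 12.6-fold, which was not called. Its locus runs from 3115313 to 3119820 on chromosome 16 of hg19. Levels were 14.1, 31.6 and 28.3 FPKM in iEV libraries 1 to 3 and 2.55, 7.22 and 6.80 FPKM in iGLI2 libraries 1 to 3. Replicate 1 was lowest in both groups, and the highest iGLI2 library was below the lowest iEV library. The mean was 4.47-fold lower, 5.52 ± 2.58 against 24.7 ± 9.32 FPKM (mean ± SD, 3 libraries each; log2 fold change -2.00, SE 0.43, limma adjusted p = 0.0240). The call was lost without iEV replicate 2 or 3 or iGLI2 replicate 2 or 3 (0.0547 to 0.0957) and held without both replicate 1 libraries (log2 fold change -1.95, adjusted p = 9.22e-04).

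**Figure D4:**
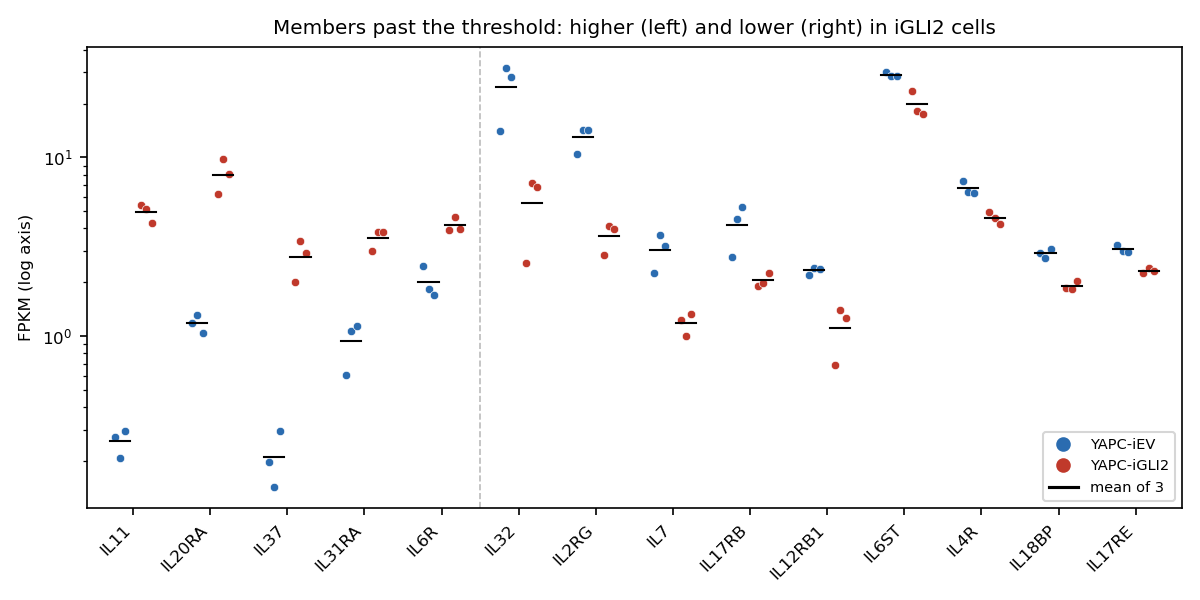
FPKM of the 14 called members in each library on a log y axis, the 5 that were higher in iGLI2 cells on the left of the dashed line and the 9 that were lower on its right, iEV in blue and iGLI2 in red, with the mean of 3 libraries as a bar. The groups do not overlap for any of the 14, which were chosen by the test on these same values (42% of all genes tested, called or not, had no overlap). IL11 and IL37 are the members whose iEV libraries all lie under 0.3 FPKM.

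The remaining members were at or near the bottom of the scale. Of the 52 below a mean of 1 FPKM, 19 were listed at 0 in all 6 libraries, 14 stayed under 0.1 FPKM, 10 peaked between 0.1 and 0.5 FPKM and 9 reached 0.5 FPKM in at least 1 library. The last were IL1R2, IL20RB, IL11RA, IL1RN, IL17C, IL10RA, IL12A, IL18R1 and IL19, all given above. The common beta chain group, which drives eosinophil and myeloid growth, was silent as a whole, with IL5, IL3RA and IL5RA listed at 0 and IL3 under 0.2 FPKM. IL3RA lies in a stretch that the X and Y chromosomes share, and how reads that match more than 1 place were handled is not given in the sources used here. The IL36 ligands and their receptor IL1RL2 were also low, with IL36A and IL1RL2 listed at 0, IL36G at 0.0795 to 0.269 FPKM and IL36B listed at 0 in the iEV libraries and at 0.0749 to 0.145 FPKM in the iGLI2 libraries. IL36RN, the antagonist of that receptor, was 0.0503 to 0.156 FPKM in iEV and 0.125 to 0.497 FPKM in iGLI2 libraries. In 12 of the 52 the groups did not overlap, against 12.8% of all genes under a mean of 1 FPKM, and all 12 are among the 33 that are above 0 in some library, against 21.9% of such genes. In the fit without a filter on low values, 33 of the 52 entered and 4 were called higher in iGLI2 cells, against 7.44% of the genes in that fit. These were IL10RA (limma adjusted p = 3.64e-04), IL1RN (0.0310), IL1R2 (0.0427) and IL36B (0.0256), named after their values were seen.

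The merged entry of IL4I1 and NUP62 was 20.9, 23.5 and 24.1 FPKM in iEV and 16.5, 21.7 and 21.5 FPKM in iGLI2 libraries. The groups overlapped, the difference was not called (log2 fold change -0.20, limma adjusted p = 0.307, and 0.0382 without both replicate 1 libraries), and the share of either gene cannot be read from it. Of the 14 called members, 7 kept the call with each of the 6 libraries left out in turn, namely IL11, IL20RA, IL37, IL31RA, IL6R, IL2RG and IL18BP. Besides the overlaps given above, exon bases are shared with noncoding genes on the other strand by IL6ST (797 of 12060), IL4R (329 of 5884), IL7 (231 of 3392), IL17RB (99 of 3044), IL17D (1316 of 3624) and IL1R1 (11 of 7123). IL6 shares 46 of 4321 with STEAP1B on the other strand, and IL15RA 151 of 3633 with a noncoding gene on the same strand. Small RNA genes lie inside IL17D (81 of 3624) and IL32 (129 of 3209). Protein-coding genes on the same strand overlap IL17RC (2107 of 4535) and IL10RB (1732 of 8025). IL11, IL20RA, IL37, IL31RA and IL6R share none with another gene of that annotation.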

How the data were processed

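RNA-seq was measured in 6 libraries of YAPC cells, 3 YAPC-iEV and 3 YAPC-iGLI2, grouped and numbered by their titles. The authors trimmed reads with Trimmomatic, aligned them with tophat2 to hg19 and used cuffdiff (2.1.1 in the submitters' processing notes); the gene annotation and any scaling between libraries are not given in the sources used here. The header of the deposited table names no unit, and the values are taken as FPKM from their form. Of 27024 entries, 1252 off the primary chromosomes and 330 lower entries of a repeated name were left out, which left 25442 genes. The library kit (Illumina TruSeq RNA) does not mark strand.

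Log2(FPKM + 1) was tested with limma 3.58.1 (R 4.3.3), with an intensity trend, condition as the only term, all 6 libraries and Benjamini-Hochberg adjustment over 12493 genes. An exact permutation test of 3 against 3 cannot go below p = 0.1, so none is given for single genes. FPKM holds no read numbers, so depth per library is unknown.

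The members, roles, the list of 55 signaling genes and the marker lists were chosen with earlier results of these data known. Every expressed member is named; members under a mean of 1 FPKM are named with values where a library reached 0.5 FPKM, and listed genes where called, except some that are not reported here by name. Members named otherwise were chosen after their values were seen. Alternatives were upper quartile scaling, quantile normalization, small RNA genes left out with rescaling, a pseudocount of 0.1, no filter, a mean of at least 5 FPKM, a replicate block, no trend and each library left out; leaving out both replicate 1 libraries was added after seeing the data. Exon overlaps came from GENCODE lifted to GRCh37, promoters from RefSeq (GRCh38.p14), where IL31RA had no entry. Starts in the table counted from 0, and 1 was added.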

Additional observations from a re-analysis of the deposited data

How the results depend on the processing

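The numbers of called members, 5 higher and 9 lower, stayed within 1.5 times under the 3 other scalings, the pseudocount of 0.1, no filter, the replicate block and limma without the trend. With a mean of at least 5 FPKM, which leaves 11 members, 0 were higher by limma (0 also at an unadjusted p under 0.05) and 5 lower. Of all 9037 genes in that fit, 824 were higher and 1090 lower. In the same fit 5 signaling genes were higher. The 5 members that rose have lower means and were not in that fit. Without both replicate 1 libraries there were 8 members higher and 15 lower, and 11 signaling genes lower. With each library left out in turn, members higher were 5 to 7, members lower 3 to 9, signaling genes higher 3 to 9 and lower 3 to 6. IL18 changed sign, to 0.039 with upper quartile scaling, 0.0077 with quantile normalization and 0.074 with small RNA genes left out, and ranged from -0.10 to 0.073 with a library left out. IL17RC ranged from -0.16 to 0.031 and IL1RAP from -0.39 to 0.054 with a library left out, and IL17RC was 0.016 without both replicate 1 libraries; the cause was not tested. Correlations of deviations between libraries of the same number were 0.20, 0.092 and 0.028. The value of 0.20, for both replicate 1 libraries, was the highest of all pairs, while iEV replicate 2 correlated best with iGLI2 replicate 3 (0.12). The number was not taken as a pairing in the main fit, so what the replicate 1 libraries share stays in its spread. The replicate block raised calls over all genes from 2742 to 3928 and signaling genes lower from 5 to 10, and it called IL6 (adjusted p = 0.0404), IL17RD (0.00443), IL1B (0.0280), IL1R1 (0.0183), IRAK2 (0.00320) and CASP1 (0.00974).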
